A study of Mus musculus with 6 samples.

Results

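The genes described here are 6 members of the endocytic and sorting machinery built around the LDL receptor family: the receptors Lrp1 and Vldlr, the sorting receptors Sort1 and Sorl1, the receptor chaperone Lrpap1 and the receptor ubiquitin ligase Mylip. They were chosen by name, with earlier results of these data known, from the 35540 gene symbols of a transcript table of mouse liver. The level of a gene is the sum over its transcripts in TPM, a unit that corrects for transcript length and adds up to 1000000 in each mouse. RNA was sequenced from 6 livers on a C57BL/6J background, to compare gene expression with and without hepatic Surf4, the gene of a cargo receptor of the endoplasmic reticulum. All mice were Surf4 fl/fl (loxP sites around exon 2); 3 of them, called Alb-Cre+, also carried a Cre recombinase driven by the albumin promoter, which is active in hepatocytes, and their 3 littermate controls without it are called Alb-Cre-. The paper takes the Surf4 mRNA that still holds exon 2 in Alb-Cre+ livers to come likely from cells other than hepatocytes. The methods describe an overnight fast ahead of blood and tissue collection in general, without naming the sequenced livers. The mouse numbered 2 was female and those numbered 1 and 3 were male in both genotypes, so sex and replicate number 2 cannot be told apart. The age of the sequenced mice was not given in the sources used here.

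Receptors of this family bind lipoprotein particles, protease-inhibitor complexes and other ligands at the cell surface, carry them into clathrin-coated pits through short motifs in their cytoplasmic tails, release them in endosomes and return to the surface. Lrp1 clears remnant lipoproteins and many other ligands in the liver, while Vldlr is best known from muscle, fat and heart, where it takes up triglyceride-rich lipoproteins. Sort1 and Sorl1 carry a VPS10 domain and move ligands between the trans-Golgi, endosomes and the surface. Lrpap1, also called RAP, is a chaperone of the endoplasmic reticulum that keeps newly made receptors from binding ligands too early, and Mylip, also called IDOL, marks receptors of the family for breakdown in lysosomes and is a target of the sterol-sensing nuclear receptor LXR.

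The stretches below show the receptor features to which the transcript values refer. They were read from the GENCODE M21 transcripts of the GRCm38 reference, 5′ to 3′ on the strand of the gene. The NPXY motif, asparagine, proline, any residue, tyrosine, is the docking site for cytoplasmic adaptors. A search of the coding frame for codons of this motif found 3 in Lrp1, of which 2 lie in the last 200 codons, 1 in Vldlr and none anywhere in Sort1 or Sorl1. In the lines below, capitals mark the 12 bases of each motif. The first lies in exon 88 of Lrp1 (chr10:127539308-127539319, minus strand), the second in exon 89 of Lrp1 (chr10:127539064-127539075, minus strand) and the third in exon 18 of Vldlr (chr19:27247940-27247951, plus strand).
Lrp1 NPXY 1: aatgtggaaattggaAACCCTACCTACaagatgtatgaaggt
Lrp1 NPXY 2: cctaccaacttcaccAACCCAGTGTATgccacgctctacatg
Vldlr NPXY 1: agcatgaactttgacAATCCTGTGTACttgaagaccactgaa

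Vldlr mRNA is made with or without exon 16, which encodes a stretch for O-linked sugars next to the membrane. Exon 16 has 84 bases (chr19:27246593-27246676, plus strand), shown in capitals between the 20 last bases of exon 15 and the 20 first bases of exon 17. The second line shows the join without exon 16, with exon 17 in capitals. Of the 27 whole codons of exon 16, 10 encode serine or threonine, the residues that carry O-linked sugars, a share of 37.0%, against 12.7% of the 873 codons of the full coding sequence.
Vldlr exon 16: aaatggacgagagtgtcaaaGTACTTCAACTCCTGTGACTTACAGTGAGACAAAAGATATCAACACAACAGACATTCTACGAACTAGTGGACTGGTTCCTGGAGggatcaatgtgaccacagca
Vldlr exon 15 to exon 17: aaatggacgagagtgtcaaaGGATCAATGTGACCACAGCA

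In these livers the 6 genes spanned a wide range of levels. Lrp1 had the highest mean over the 6 mice (51.5 TPM), followed by Lrpap1 (18.5 TPM), Mylip (8.73 TPM), Vldlr (2.44 TPM), Sort1 (1.57 TPM) and Sorl1 (0.293 TPM). Each gene was above the next in all 6 mice, except Vldlr and Sort1. Vldlr was above Sort1 in 3 of the 6 mice, so these neighbours do not differ beyond their spread. Among the 14189 genes tested (mean level of 0.1 TPM or more), Lrp1 stood at the 88.2nd percentile, Lrpap1 at the 75.3rd, Mylip at the 61.1st, Vldlr at the 37.2nd, Sort1 at the 30.5th and Sorl1 at the 11.6th. All 6 genes passed the filter. These ranks are of levels summed over transcripts. Of the mean Lrp1 level, 48.4% was assigned to a transcript of 763 bases annotated as a retained intron. This is a share of TPM, which corrects for transcript length, and not a share of reads. The full-length Lrp1 mRNA alone had a mean of 16.7 TPM. That is below the summed 18.5 TPM of Lrpap1, whose main transcript had 14.7 TPM.

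No gene of the 6 differed between the genotypes beyond the spread between mice. In the limma fit over all genes tested, on log2(TPM + 0.1), their adjusted p was 0.9999 in each case and the smallest unadjusted p was 0.238, for Sort1. The whole table gave little more: 0 of the 14189 genes (0%) passed an adjusted p of 0.01 in limma, and 250 (1.76%) had an unadjusted p under 0.05. The labels were checked by the targeted gene. Surf4, summed over transcripts with and without exon 2, stood at 92.5, 94.5 and 92.5 TPM in Alb-Cre- replicates 1 to 3 and at 59.0, 71.8 and 54.3 TPM in Alb-Cre+ replicates 1 to 3, so that the groups did not overlap. Groups that do not overlap were found for 4.9% of all genes tested. For Surf4 the log2 difference, Alb-Cre+ minus Alb-Cre-, was -0.60 ± 0.13 (SE, n = 3 per genotype; limma adjusted p = 0.9999). The fit thus did not call even the targeted gene. A gene without a call, among the 6 or in the whole table, is therefore not shown to be unchanged. The paper, with another tool, did report some liver transcripts as significantly higher or lower after the deletion.

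**Figure D1:**
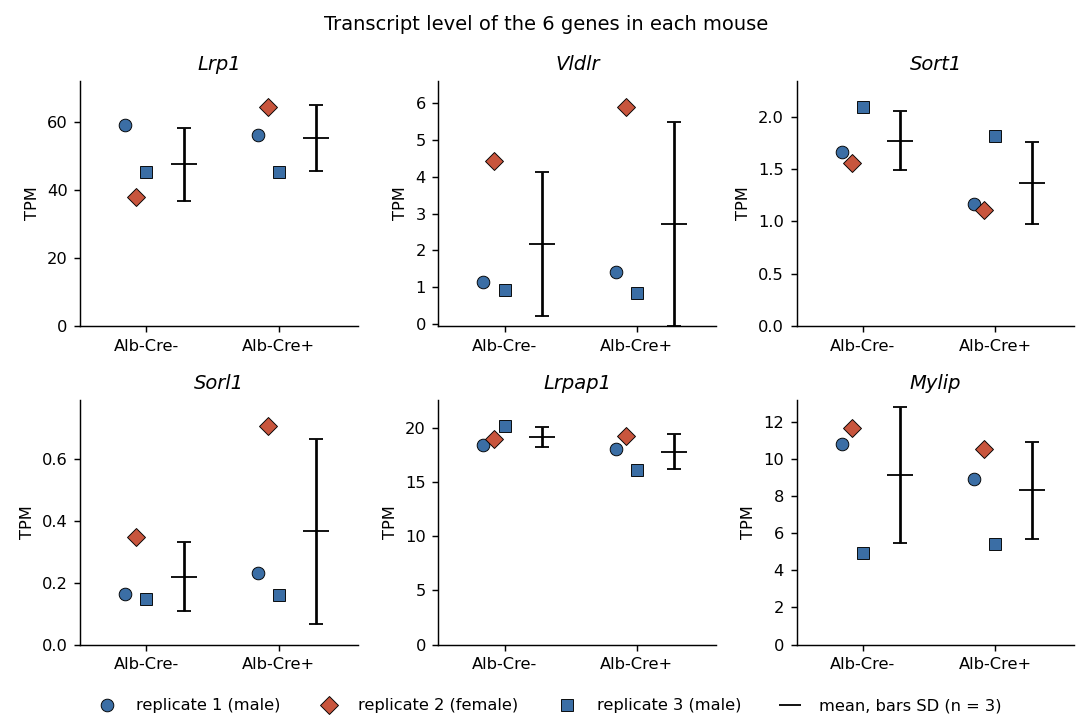
Level of each of the 6 genes in TPM (vertical axes, starting at 0 except for Vldlr, whose SD bar reaches below 0) in each mouse by genotype, with the mean and SD of each genotype (n = 3). The genotypes overlap for all 6 genes, and both female mice (diamonds) stand above all 4 male mice for Vldlr and Sorl1.

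Lrp1, the large remnant receptor, had 59.3, 38.0 and 45.5 TPM in Alb-Cre- replicates 1, 2 and 3. The Alb-Cre+ mice had 56.4, 64.4 and 45.3 TPM. The lowest and the highest of the 6 values both belonged to female mice of opposite genotype, and the male values of the 2 genotypes lay close together within each replicate number. The log2 difference was 0.23 ± 0.21 (SE), with a 95% interval from -0.26 to 0.71, which covers folds from 0.837 to 1.64. Within same-numbered mice the log2 difference was -0.071 for replicate 1, 0.76 for replicate 2 and -0.0053 for replicate 3, and in male mice alone it was -0.038.

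Vldlr had 1.15, 4.43 and 0.925 TPM in Alb-Cre- replicates 1, 2 and 3. The Alb-Cre+ mice had 1.42, 5.90 and 0.843 TPM. The values followed the replicate number and not the genotype, with both replicate 2 mice far above the rest. The log2 difference between genotypes was 0.19 ± 0.81 (SE), and its 95% interval from -1.73 to 2.11 covers folds from 0.301 to 4.32. In a fit that also held the replicate number the SE was 0.20 and the interval ran from -0.32 to 0.70. Of the variance of log2 Vldlr over the 6 mice, 98.0% lay between replicate numbers and 0.827% between genotypes. The median of all genes tested was 64.1% between replicate numbers and 5.68% between genotypes.

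Mylip, the ubiquitin ligase, had 10.8, 11.7 and 4.92 TPM in Alb-Cre- replicates 1, 2 and 3. The Alb-Cre+ mice had 8.95, 10.6 and 5.42 TPM. Both replicate 3 mice had the lowest values, about the same in the 2 genotypes. The log2 difference was -0.093 ± 0.39 (SE), with a 95% interval from -1.02 to 0.83, and with the replicate block the interval ran from -0.45 to 0.26. The share of variance between replicate numbers was 96.1%, against 0.906% between genotypes.

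Sort1, the sorting receptor of the trans-Golgi, had 1.67, 1.56 and 2.09 TPM in Alb-Cre- replicates 1, 2 and 3. The Alb-Cre+ mice had 1.17, 1.11 and 1.82 TPM. The Alb-Cre+ mouse was the lower of the pair for each of the 3 replicate numbers, with log2 differences of -0.48, -0.46 and -0.19, while the groups overlapped because Alb-Cre+ replicate 3 stood above Alb-Cre- replicates 1 and 2. Of all genes tested, 12.4% were lower in all 3 pairs. The log2 difference was -0.37 ± 0.29 (SE), with a 95% interval from -1.06 to 0.31 (folds from 0.480 to 1.24), an unadjusted limma p of 0.238 without and 0.107 with the replicate block.

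Sorl1, the second VPS10 receptor, had 0.164, 0.348 and 0.148 TPM in Alb-Cre- replicates 1, 2 and 3. The Alb-Cre+ mice had 0.230, 0.709 and 0.160 TPM. The level was low in all mice, under 1 TPM, and highest in the female mouse of each genotype. The Alb-Cre+ mouse was the higher of each pair, by 0.32, 0.85 and 0.069 on the log2 scale. The 6 genes thus held 2 with the same direction in all 3 pairs, Sort1 and Sorl1, and 23.9% of all genes tested had such a pattern in one direction or the other. The log2 difference of Sorl1 was 0.41 ± 0.52 (SE), with a 95% interval from -0.80 to 1.63. It was -0.073 without Alb-Cre+ replicate 2 and 0.15 with a pseudocount of 1 TPM.

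Lrpap1, the chaperone, was the steadiest of the 6. It had 18.4, 19.0 and 20.2 TPM in Alb-Cre- replicates 1, 2 and 3. The Alb-Cre+ mice had 18.1, 19.3 and 16.2 TPM. The highest mouse stood 1.25 times above the lowest, against 1.70 times for Lrp1 and 6.99 times for Vldlr. The log2 difference of -0.11 ± 0.13 (SE) had the narrowest 95% interval of the 6 genes, from -0.42 to 0.20, or folds from 0.748 to 1.15. Exact two-sided permutation tests over mice gave p between 0.3 and 0.8 for the 6 genes, where 3 mice against 3 cannot go below 0.1.

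**Figure D2:**
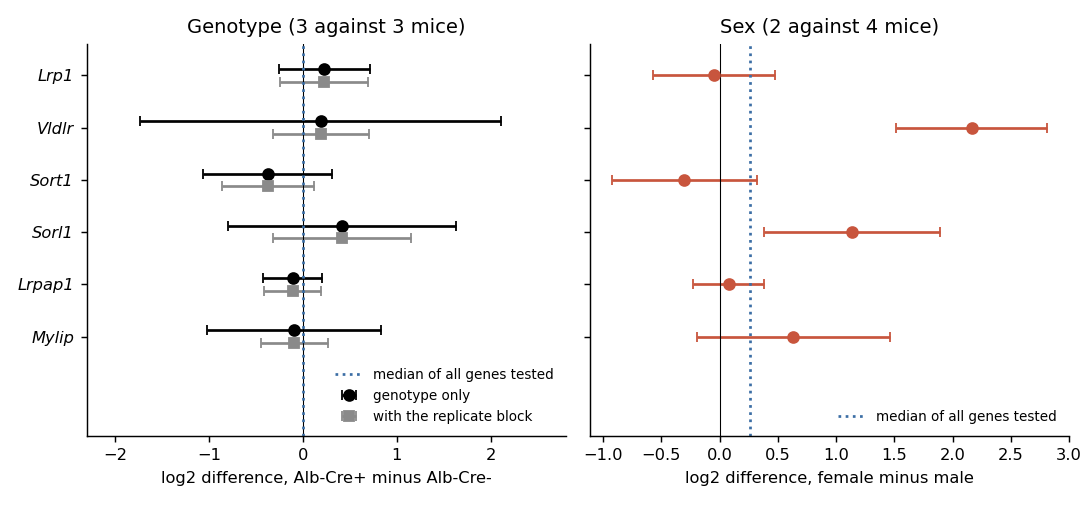
Log2 difference in level with its 95% interval for the 6 genes: on the left Alb-Cre+ minus Alb-Cre- in limma with genotype alone (black) and with the replicate block (grey), on the right female minus male adjusted for genotype, with the 6 mice taken as independent. The dotted line is the median of all genes tested. All genotype intervals include 0, and the block narrows those of Vldlr and Mylip most; on the right the intervals of Vldlr and Sorl1 lie above 0.

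Ratios of 2 genes within a mouse were taken as differences of log2(TPM + 0.1), so the pseudocount weighs on those with a low gene such as Sorl1. The log2 ratio of the chaperone Lrpap1 to its client Lrp1 was -1.28 ± 0.357 (SD, n = 3) in Alb-Cre- and -1.62 ± 0.127 in Alb-Cre+ mice, a difference of -0.34 (exact two-sided permutation p = 0.3) that ran from -0.54, without Alb-Cre- replicate 1, to -0.19, without Alb-Cre- replicate 2. The log2 ratio of Vldlr to Lrp1 was -4.71 ± 1.42 in Alb-Cre- and -4.74 ± 1.15 in Alb-Cre+ mice (exact permutation p = 0.9). It lay between -3.43 and -3.07 in the female and between -5.59 and -5.21 in the male mice. The log2 ratio of Sorl1 to Sort1 was -2.59 ± 0.639 in Alb-Cre- and -1.80 ± 1.16 in Alb-Cre+ mice (exact permutation p = 0.5), and was larger in the Alb-Cre+ mouse of each pair, by 0.80, 1.31 and 0.26. The mean difference of 0.79 was 0.38 with a pseudocount of 1 TPM and ran from 0.18, without Alb-Cre+ replicate 2, to 1.33, without Alb-Cre+ replicate 3. For Mylip to Vldlr, a ligase and its substrate, it was 2.27 ± 0.875 and 1.98 ± 0.997 (exact permutation p = 0.7). Adjusted over the 4 ratios, each p was 0.9.

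Both replicate 3 mice, which were male, had the lowest values of Mylip and the highest of Sort1. Replicate number 2, and with it sex, separated 2 of the 6 genes, Vldlr and Sorl1. The contrast of female and male mice was added after the values were seen. Both female mice carry the number 2, so over pairs it sets 1 female pair against 2 male pairs. Vldlr stood at 4.43 and 5.90 TPM in the female mice and between 0.843 and 1.42 TPM in the 4 male mice. The female mean was 4.76 times the male mean. In limma with sex and genotype as terms the log2 difference, female minus male, was 2.16 ± 0.27 (SE; 95% interval from 1.51 to 2.81), with an adjusted p of 0.0136, above the 0.01 threshold. This fit takes the 6 mice as independent. With the mean of each same-numbered pair as 1 value the SE in limma was 0.34, the interval ran from 1.21 to 3.12 and the adjusted p was 0.152. Sorl1 stood at 0.348 and 0.709 TPM in the female mice and between 0.148 and 0.230 TPM in the male mice, with a log2 difference of 1.14 ± 0.31 (limma adjusted p = 0.0779, and 0.226 over pair means) that was 0.37 with a pseudocount of 1 TPM. Both female mice were above all 4 male mice for 36.6% of all genes tested, so 2 of 6 genes is no larger a share than in the table as a whole, and 0.514% of all genes passed an adjusted p of 0.01 in this contrast and 7.18% one of 0.05. Over pair means 0 genes passed an adjusted p of 0.01 in limma, 7 passed one of 0.05 and 2703 had an unadjusted p under 0.05. The median of all genes tested was shifted by 0.26 (log2) in it. With median-of-ratios scaling the median was -0.011 and the log2 differences were 1.89 for Vldlr (adjusted p = 0.0127) and 0.92 for Sorl1 (adjusted p = 0.0927). Over all alternatives the adjusted p of Vldlr ran from 0.00949, with a pseudocount of 1 TPM, to 0.215, without Alb-Cre+ replicate 2; it was 0.104 without Alb-Cre- replicate 2. That of Sorl1 ran from 0.0657 to 0.407.

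The other 4 genes had log2 differences, female minus male, of 0.63 for Mylip, -0.050 for Lrp1, -0.30 for Sort1 and 0.077 for Lrpap1, with limma adjusted p between 0.272 and 0.900 over mice. With median-of-ratios scaling these were 0.35, -0.34, -0.57 and -0.21, so the sign for Lrpap1 turned.

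Markers of other liver cells also differed between the female and the male mice. All 11 Kupffer cell and macrophage markers were above all 4 male mice in both female mice, by 1.96 to 3.30 times as a ratio of means. Their summed level was 896 and 938 TPM in the female and between 272 and 396 TPM in the male mice. Of the 7 neutrophil markers 6 had this pattern, with sums of 149 and 307 TPM against 24.1 to 54.5 TPM, and so did 8 of 10 sinusoidal endothelial markers (sums of 248 and 274 TPM against 117 to 201 TPM). The counts were 8 of 11 for stellate cell and fibroblast, 4 of 9 for lymphocyte and 0 of 7 for cholangiocyte markers. Of all genes tested, 36.6% had both female mice above all 4 male mice, and the lymphocyte count is near this share. Red cell markers went the other way, with 4 of 5 below all male mice in both female mice and ratios of means from 0.171 to 0.464. The share of all genes in that direction was not counted, so this count has no background here. Of the 10 hepatocyte markers, which were high in all mice (79438 to 101092 TPM summed), 1 had both female mice above all male mice and 1 had both below. Their part in the values of Vldlr and Sorl1 was not tested, and in bulk tissue fewer cells of a type and less RNA per cell cannot be told apart. The pancreas markers Prss2, Cpa1 and Pnlip were at 0 in all mice, and the 6 pancreas markers summed to between 16.2 and 21.9 TPM, nearly all of it Cela1, an elastase gene.

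The levels per 1000 TPM of summed markers are given as a description. Per Kupffer cell and macrophage markers, Vldlr had 4.95 and 6.29 TPM in the female and 2.76 to 3.61 TPM in the male mice, and Sorl1 had 0.388 and 0.756 TPM against 0.414 to 0.588 TPM. Per sinusoidal endothelial markers, Vldlr had 17.9 and 21.6 TPM in the female and 5.71 to 7.60 TPM in the male mice, and Sorl1 had 1.40 and 2.59 TPM against 0.817 to 1.36 TPM. Per neutrophil markers, Vldlr had 19.2 and 29.7 TPM in the female and 15.5 to 38.4 TPM in the male mice, and Sorl1 had 2.31 and 2.33 TPM against 2.94 to 6.15 TPM. The order of the female and the male mice thus differed with the marker list used.

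**Figure D3:**
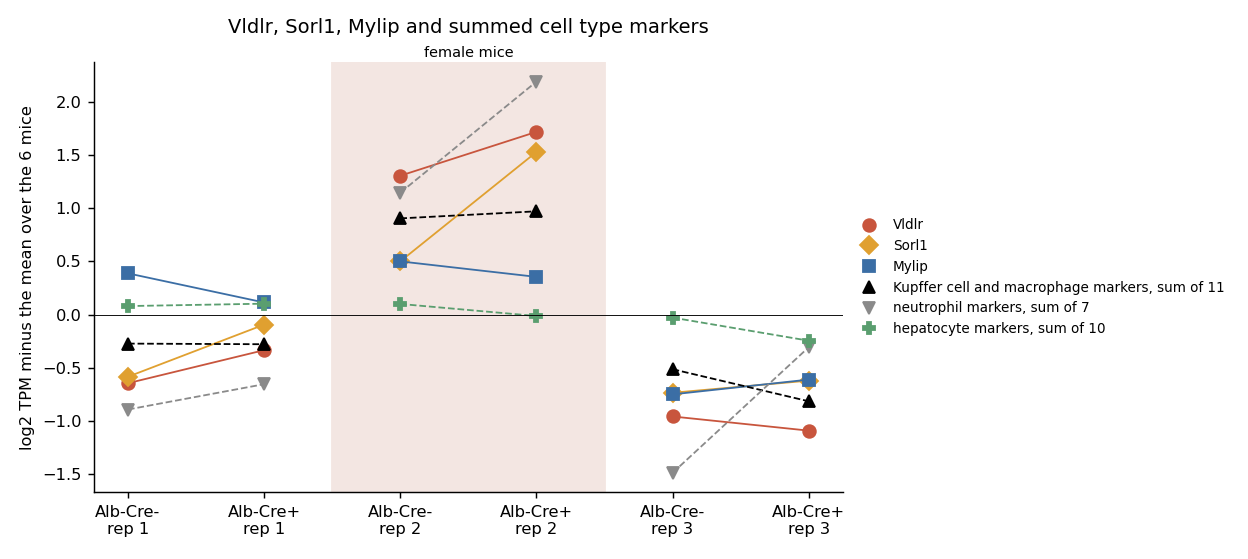
Log2 TPM of Vldlr, Sorl1 and Mylip and of the summed Kupffer cell, neutrophil and hepatocyte markers in each mouse, relative to the mean over the 6 mice; lines join the genotypes of a replicate number. In the shaded female pair Vldlr, Sorl1, Kupffer cell and neutrophil markers all lie above the male pairs, while hepatocyte markers stay near 0.

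The transcripts of each gene were compared next. The table lists 10 transcripts of Lrp1, 8 of Vldlr, 5 of Lrpap1, 4 of Sorl1, 3 of Sort1 and 2 of Mylip, 32 in all. All shares are of TPM and not of reads, and the split between overlapping transcripts is an estimate. For Lrp1 the most abundant was not the full-length mRNA but Lrp1-208, a transcript of 763 bases annotated as a retained intron (chr10:127538599-127539597), which runs from 35 intronic bases into exons 87 to 89 of the 89 exons of the 14888-base mRNA Lrp1-201 and covers both NPXY motifs shown above. The intronic bases (chr10:127539563-127539597, minus strand) are the capitals in the line below, followed by the first bases of exon 87. Of the stretches of 31 bases of Lrp1-208, 95.2% also occur in Lrp1-201.
Lrp1-208 5 prime end: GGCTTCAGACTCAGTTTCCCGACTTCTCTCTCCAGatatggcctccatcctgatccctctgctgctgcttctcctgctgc

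Lrp1-208 held 48.4% of the mean Lrp1 level and hardly moved between mice. It stood at 27.0, 21.8 and 23.1 TPM in Alb-Cre- and at 26.0, 24.8 and 26.9 TPM in Alb-Cre+ replicates 1 to 3, with the highest 1.24 times the lowest. Lrp1-201, 32.4% of the mean level, stood at 20.5, 10.3 and 13.6 TPM in Alb-Cre- and at 19.3, 24.1 and 12.3 TPM in Alb-Cre+ replicates 1 to 3, with the highest 2.35 times the lowest. Lrp1-205, a transcript of 679 bases within exons 67 to 72 that is annotated for nonsense-mediated decay, held 17.4% and ranged from 5.32 to 13.2 TPM. The spread of Lrp1 between mice thus lay in Lrp1-201 and Lrp1-205. For Lrp1-201 alone the log2 difference between genotypes was 0.33 (exact two-sided permutation p = 0.5), against 0.23 for the sum.

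Vldlr was spread over several transcripts. Vldlr-207, the 1 with exon 16 among the 4 transcripts that span exons 15 to 17, held 26.0% of the mean Vldlr level, Vldlr-208 25.5%, Vldlr-201 24.3% and Vldlr-202 10.6%. Transcripts with exon 16 made up 47.1%, 27.1% and 39.7% of these 4 in Alb-Cre- and 34.8%, 27.5% and 26.5% in Alb-Cre+ replicates 1 to 3. The means were 38.0% ± 10.1 (SD, n = 3) and 29.6% ± 4.49, which overlapped (exact two-sided permutation p = 0.3). Most Vldlr mRNA spanning this region was thus assigned to forms without exon 16 in every mouse. Vldlr-201, which lacks exon 16 and is annotated for nonsense-mediated decay, stood at 1.40 and 1.98 TPM in the female mice, at 0.182 TPM in Alb-Cre+ replicate 1 and at 0 in the other 3 male mice. Vldlr-207 stood at 1.11 and 1.35 TPM in the female and between 0.217 and 0.393 TPM in the male mice, and Vldlr-208 at 1.17 and 1.16 TPM against 0.255 to 0.556 TPM, so the higher female level was found in forms with and without exon 16.

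**Figure D4:**
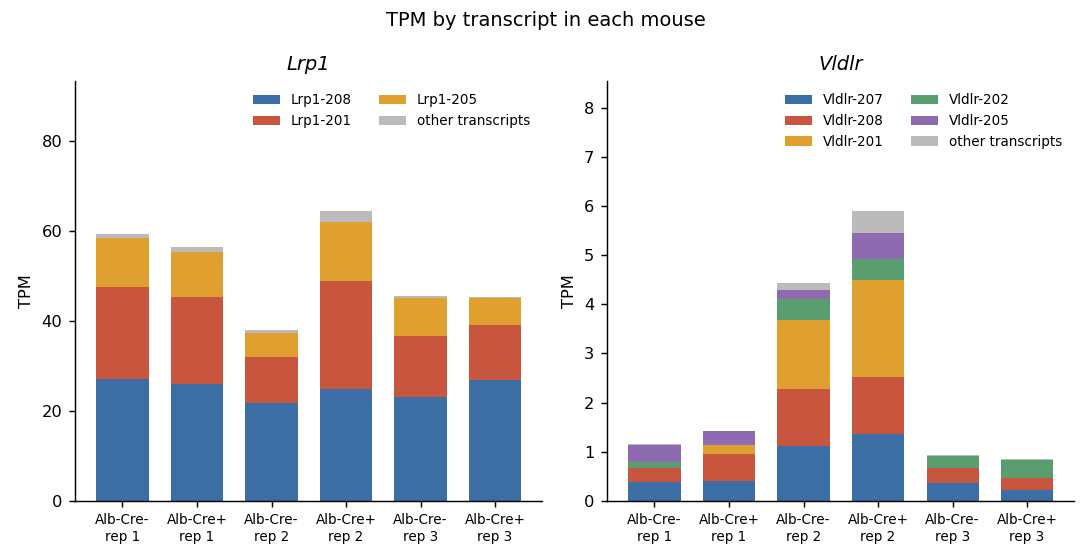
TPM of Lrp1 and Vldlr in each mouse, stacked by transcript, with the mice ordered by replicate number. Lrp1-208 has about the same height in all bars (21.8 to 27.0 TPM), while Lrp1-201 ranges from 10.3 to 24.1 TPM; for Vldlr the female bars (rep 2) are higher in Vldlr-207, Vldlr-208 and Vldlr-201.

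The other 4 genes rested on a single main transcript. Mylip-201 held 99.6% of the mean Mylip level, Sorl1-201 98.0% of Sorl1, Sort1-201 88.2% of Sort1 and Lrpap1-201 79.2% of Lrpap1, with most of the rest of Lrpap1 in the 716-base Lrpap1-205 (18.2%). The share of the main transcript overlapped between genotypes for all 6 genes (exact permutation p between 0.3 and 1, adjusted over the 6 genes between 0.96 and 1). In the male mice Sort1-203, a second coding form, held 6.81% to 16.9% of Sort1, and in the female mice 3.43% and 6.75%.

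Around these 6 genes, 157 genes in 12 lists of receptors, chaperones, adaptors, recycling and sorting complexes, regulators and ligands were examined, of which 148 passed the filter. In limma none of the 148 passed the adjusted p of 0.01; 1 was higher and 1 lower at an unadjusted p under 0.05, together 1.35% of them, against 0.803% higher and 0.958% lower of all genes tested. Their median log2 difference was -0.017, against -0.0017 for all genes and 0.049 for the 6 genes. Groups did not overlap for 1 higher and 3 lower list genes, together 2.70%, against 2.18% higher and 2.71% lower of all genes. With the replicate block the counts at an unadjusted p under 0.05 were 2 higher and 2 lower, against 2.28% higher and 2.42% lower, together 4.69%, of all genes.

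The higher gene was Hsp90b1, a chaperone of the endoplasmic reticulum, with 272 ± 19.4 TPM (SD, n = 3) in Alb-Cre- and 359 ± 60.8 TPM in Alb-Cre+ mice. The log2 difference was 0.39 ± 0.15 (SE; limma unadjusted p = 0.0393, adjusted p = 0.9999). Hsp90b1 was higher in all 3 pairs, by 0.29, 0.75 and 0.12, and the groups did not overlap. The 4 chaperones of its list had a median of 0.084. The lower gene was Scarb1, the HDL receptor of hepatocytes, with 107 ± 12.9 TPM in Alb-Cre- and 79.2 ± 4.96 TPM in Alb-Cre+ mice. Its log2 difference was -0.42 ± 0.13 (SE; limma unadjusted p = 0.0134, adjusted p = 0.9999), it was lower in all 3 pairs, and the groups did not overlap.

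Among the other receptors of the family, 8 of 11 were measured, 4 with positive and 4 with negative differences and a median of 0.021. Lrp4 had a log2 difference of 0.33 (unadjusted p = 0.395) and Lrp11 of -0.38 (unadjusted p = 0.342). None of the 3 other VPS10 receptors (Sorcs1, Sorcs2 and Sorcs3) reached the minimum level. Of the cytoplasmic adaptors that bind NPXY motifs and tails, 10 of 12 were measured, with a median of -0.044. Pdzk1, an adaptor of Scarb1, had -0.16, and Gulp1, an adaptor that binds the Lrp1 tail, had -0.30 at 0.168 and 0.120 TPM. The 26 genes of the CCC, WASH, retromer and retriever complexes, which return receptors from endosomes, had a median of -0.079, against -0.0017 for all genes. Of these, 20 had negative differences, a count without a share over all genes beside it, and none had an unadjusted limma p under 0.05. Their summed level overlapped, with 525, 567 and 539 TPM in Alb-Cre- and 508, 591 and 449 TPM in Alb-Cre+ replicates 1 to 3. Snx2 (-0.18) and Commd9 (-0.19) had the smallest p. The 12 genes of GGA and AP-1 sorting, which carry Sort1 from the trans-Golgi, had a median of 0.072, with Gga2 at 0.49 (unadjusted p = 0.127 and 0.0235 with the replicate block) and Ehd1 at 0.20. The 18 genes of clathrin and AP-2 had a median of 0.031, with Ap2m1 at -0.099 and Epn2 at 0.36.

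The 10 genes of LXR and its targets, the group to which Mylip belongs, had a median of -0.040, with Abcg8 at -0.33 and Nr1h2, 1 of the LXR genes, at -0.11. The 16 genes of SREBP2 and its targets had the largest median of the lists, 0.38, with 12 positive differences, and none at an unadjusted p under 0.05. Their summed level was 661, 1002 and 648 TPM in Alb-Cre- and 1080, 797 and 585 TPM in Alb-Cre+ replicates 1 to 3, so the groups overlapped. Insig2 alone gave 323, 537 and 379 TPM of this in Alb-Cre- and 317, 299 and 374 TPM in Alb-Cre+ mice. Fdft1, of squalene synthesis, had 0.38 (limma unadjusted p = 0.235) and Insig2, a sterol-sensing anchor of the pathway, -0.30 (limma unadjusted p = 0.191). By replicate number, 1 to 3, the log2 differences were 0.95, 0.14 and 0.065 for Fdft1 and -0.028, -0.85 and -0.021 for Insig2. The 16 genes of receptor turnover had a median of -0.023, with Psenen, of the gamma-secretase that cuts Lrp1, at -0.21. The 13 other lipoprotein receptors and heparan sulfate enzymes had a median of -0.0061. The list of liver-made ligands, which also held Mttp, not itself a ligand, had 15 measured genes with a median of -0.089. Plau, a protease cleared with its inhibitor by Lrp1, had 1.13 ± 0.141 TPM in Alb-Cre- and 0.747 ± 0.174 TPM in Alb-Cre+ mice (log2 difference -0.55 ± 0.29, limma unadjusted p = 0.0977, and 0.0447 with the replicate block), with groups that did not overlap. Mttp, which loads lipid onto ApoB, had 0.17.

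**Figure D5:**
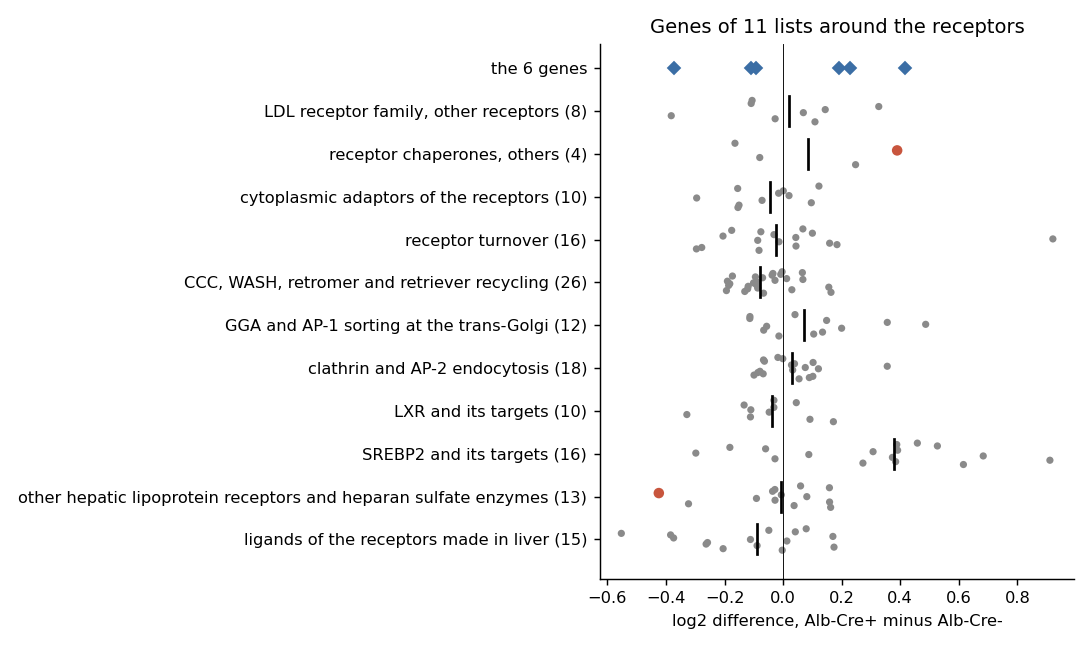
Log2 difference, Alb-Cre+ minus Alb-Cre-, of the measured genes of 11 lists (points; number of genes in brackets; vertical bars are medians) and of the 6 genes (diamonds). Larger red points mark the 2 genes at an unadjusted p under 0.05, Hsp90b1 and Scarb1; most points lie within 0.4 of 0 and the SREBP2 list has the median farthest to the right.

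The genes most alike to each of the 6 were taken from the 10635 genes at a mean level of 1 TPM or more, by the smallest root mean square difference of centred log2 values over the 6 mice, as a description. For Lrp1 they were Tnks1bp1 (0.0418), Rai14 (0.0459) and Setdb1 (0.0506), against an SD of Lrp1 itself of 0.288. For Vldlr they were Ccl6 (0.154), Entpd1 (0.175) and Ednrb (0.177), against an SD of 1.15. Ccl6, a chemokine, had 53.4 and 52.3 TPM in the female and 10.5 to 15.1 TPM in the male mice. For Sorl1, Fmnl2 (0.0767) and Dok3 (0.0772) are given, against 0.661. For Mylip they were Gimap1 (0.0459), Phactr2 (0.0721) and Scarf2 (0.0821), against 0.535. For Sort1 they were Rassf3 (0.0956), Phf7 (0.104) and Gpat4 (0.113), against 0.336. For Lrpap1 they were Prorsd1 (0.0177), Mrps22 (0.0209) and the clathrin adaptor subunit Ap2m1 (0.0209), against 0.110.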

How the data were processed

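Liver RNA of 6 mice (3 Surf4 fl/fl Alb-Cre+, 3 Surf4 fl/fl Alb-Cre-) was measured, with groups, replicate numbers and sex taken from the labels. The authors deposited TPM for 116748 transcripts of each mouse on the GRCm38 build; the submitters' processing notes name STAR, RSEM, Salmon, DESeq and DESeq2, the methods describe STAR and RSEM, and the table is labelled as Salmon output. Since TPM keep no read numbers, depth is unknown, and no counting interval is given. The assignment of reads to overlapping transcripts is an estimate of that software. A second deposited table holds the authors' own comparison (DESeq2 means, fold changes and p-values) and was not used.

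TPM were summed by gene symbol; the 163 transcripts without a symbol (0.0515% to 0.0887% of TPM) were left out. The comparison used log2(TPM + 0.1) of genes at a mean level of 0.1 TPM or more and was made with limma 3.58.1 (R 4.3.3; empirical Bayes variances with a trend), genotype as the only factor, and Benjamini-Hochberg adjustment over all genes tested with a threshold of 0.01. A fold change on this scale understates the change of low genes. Within-mouse ratios and transcript shares were compared by exact two-sided permutation tests (scipy 1.17.1). The limma step was tested on simulated data. The deviations of same-numbered mice from their genotype means correlated (0.367, 0.588 and 0.370 for replicates 1 to 3), against -0.444 to 0.171 for different numbers. On the ground of these data alone the replicate number was taken as pairing the mice, and was fitted as a block as an alternative. Sex goes with the replicate number, so the correlations cannot tell pairing from a sex difference. Further alternatives were sex as a covariate, a pseudocount of 1 TPM, no filter, a minimum mean of 1 TPM, median-of-ratios scaling, no variance trend, an adjusted p of 0.05 and leaving out each mouse. The sex contrast (over mice and over means of same-numbered pairs), the interaction of sex and genotype, male mice alone, the Lrp1-201 values and the exon 16 share were added after the data were seen.

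The 6 genes and the lists were chosen with earlier results of these data known. All 6 were named, with Surf4, from each list the genes at an unadjusted p under 0.05 or otherwise the 2 with the smallest p, and the 3 most alike genes of each; 1 list gene and 1 of the most alike genes that met this rule are not reported here. Transcript names, exons and sequences are those of GENCODE M21, matched by identifier; for all 32 transcripts of the 6 genes the table had another version number than M21. Amino acid sequences were not analysed here.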

Additional observations from a re-analysis of the deposited data

Results flagged for a closer look

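For Lrp1 and for Lrpap1 the difference, Alb-Cre+ minus Alb-Cre-, was positive in the female pair and negative in both male pairs. Of all genes tested, 32.9% had 1 sign in the female pair and the other in both male pairs. For Lrp1 the log2 difference was 0.76 in the female pair and -0.071 and -0.0053 in the male pairs (replicates 1 and 3), and the interaction of sex and genotype in limma was 0.80 (unadjusted p = 0.0717, adjusted p = 0.775). For Lrpap1 it was 0.023 in the female pair and -0.029 and -0.32 in the male pairs, with an interaction of 0.20 (unadjusted p = 0.427, adjusted p = 0.854). With a single pair of female mice, neither difference passed the test, and 0 of the 14189 genes passed an adjusted p of 0.01 for this interaction in limma, with 862 at an unadjusted p under 0.05.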

How the results depend on the processing

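No call between genotypes changed for any of the 6 genes in any alternative run that tested it, and their adjusted p lay between 0.889 and 1.00 throughout. Sorl1, with a mean of 0.293 TPM, was not tested in the run with a minimum mean of 1 TPM. The number of all genes past the threshold was 0 in every alternative except 1 without Alb-Cre+ replicate 1, and leaving out 1 mouse gave 0 to 1. Leaving out each mouse moved the log2 difference of Lrp1 from 0.078 to 0.40, of Vldlr from -0.58 to 0.86, of Mylip from -0.49 to 0.18, of Sort1 from -0.58 to -0.25, of Sorl1 from -0.073 to 0.75 and of Lrpap1 from -0.17 to -0.040. The sign turned for Vldlr without Alb-Cre- replicate 1 (-0.072), Alb-Cre- replicate 3 (-0.21) or Alb-Cre+ replicate 2 (-0.58), for Mylip without Alb-Cre- replicate 1 (0.075), Alb-Cre- replicate 2 (0.13) or Alb-Cre+ replicate 3 (0.18), for Sorl1 without Alb-Cre+ replicate 2 (-0.073) and for Lrp1 in male mice alone (-0.038); the cause was not tested.

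With the replicate block, 666 genes (4.69%) in place of 250 had an unadjusted p under 0.05, and the counts of list genes were 2 higher and 2 lower, also with median-of-ratios scaling added and with sex as a covariate. The block changed no other call. List genes numbered 0 higher and 2 lower without the variance trend and 4 lower in male mice alone. Without single mice they numbered 0 to 10 higher, the 10 without Alb-Cre+ replicate 3, and 0 to 7 lower, the 7 without Alb-Cre+ replicate 2.

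Without single mice the difference in log2 ratio ran from -0.69 to 0.78 for Vldlr to Lrp1 (0.78, 0.20 and 0.39 without Alb-Cre- replicate 2, Alb-Cre+ replicate 1 and Alb-Cre+ replicate 3) and from -0.73 to 0.29 for Mylip to Vldlr (0.15 and 0.29 without Alb-Cre- replicate 1 and Alb-Cre+ replicate 2). The difference in the main transcript's share ran from -8.93 to 1.49 points for Lrp1, from -0.381 to 0.127 for Mylip and from -0.115 to 4.25 for Lrpap1. For female minus male, Lrp1 ran from -0.45 to 0.35 without single mice and was 0.088 and 0.35 without Alb-Cre- replicates 1 and 2, and Lrpap1 to -0.21 with median-of-ratios scaling and -0.022 without Alb-Cre+ replicate 2. Depth cannot limit a statement in a known way, since TPM hold none.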
